A study of Homo sapiens with 6 samples.

Results

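Transcript levels of surface antigens that mark or are targeted in B-lineage leukemia were compared between 3 CTCF-dRBR and 3 CTCF-WT total RNA libraries of SEM cells. The antigens were chosen by gene symbol, with 9 listed: CD22, CD24, CD34, CD72, CD9, CD37, MME, CD58 and TNFRSF13C. A row with the exact symbol was found for 8 of them among the 57820 genes of the count and TPM tables, and CD24 was not analysed here. The filter on low counts left 14044 genes for testing, including 6 of the 8: CD22, CD72, CD9, CD37, CD58 and TNFRSF13C. CD34 and MME had a CPM under 1 in every library and were described by their counts.

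SEM is an established human cell line of B-cell acute lymphoblastic leukemia that carries the KMT2A-AFF1 fusion. In every library, CTCF, the zinc-finger protein that anchors chromatin loops and insulates domains, carried a miniAID-mClover3 tag, through which the plant receptor OsTIR1(F74G) removes the tagged protein when the auxin analog 5-Ph-IAA is present. Both groups received 5-Ph-IAA for 24 h in all, 6 h of it before doxycycline, and then 1 µg/mL doxycycline for 18 h, which switches on an HA-tagged replacement from a TRE3G promoter. The replacement was full-length CTCF in CTCF-WT and CTCF without its RNA-binding region in CTCF-dRBR. All 6 titles carry the same code, C27, and the genotype label of the CTCF-WT libraries names the tagged CTCF alone, so the replacement in that group rests on the titles and the study's methods. No label says that the replicates were separate cultures, so the p-values measure the spread between these samples, which may be technical. By the study's methods each replacement was transduced into the tagged cells, which gives a separate derivative line for each group. A difference between these lines and the loss of the RNA-binding region cannot be told apart here.

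The antigens fall into a few families with known functions on B cells. CD22 and CD72 are inhibitory coreceptors whose cytoplasmic ITIM motifs recruit the phosphatase SHP-1 and dampen signaling from the B-cell receptor, while CD9 and CD37 are tetraspanins, proteins that cross the membrane 4 times and organize partner receptors and integrins. CD58 is the ligand through which a T cell's CD2 docks onto its target, and TNFRSF13C is the receptor for the survival factor BAFF. CD34 marks stem and progenitor cells and MME encodes CD10, the common acute lymphoblastic leukemia antigen, which leukemias with a KMT2A fusion usually lack. The measurements are of RNA, and no protein at the cell surface was measured.

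RefSeq's promoter windows (GRCh38.p14, 250 bases before to 50 after the start) were matched for 6 of the 8 genes. Those of 4 antigens are shown, which differ in base composition. The CD9 and CD58 windows held more CpG than the median window (percentiles 81.2 and 87.3 of all windows). Those of CD22 and CD72 held fewer (percentiles 41.7 and 33.8). Each is printed 5′ to 3′ on the gene's own strand, with capitals marking the GC box GGGCGG searched on both strands.
CD9, chr12:6200150-6200449, plus strand: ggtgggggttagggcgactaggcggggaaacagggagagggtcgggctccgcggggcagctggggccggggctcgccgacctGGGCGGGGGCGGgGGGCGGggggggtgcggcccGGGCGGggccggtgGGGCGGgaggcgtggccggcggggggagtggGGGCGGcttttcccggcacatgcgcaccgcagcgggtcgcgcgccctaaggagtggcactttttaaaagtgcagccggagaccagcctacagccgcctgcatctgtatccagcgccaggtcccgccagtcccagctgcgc
CD58, chr1:116570977-116571276, minus strand: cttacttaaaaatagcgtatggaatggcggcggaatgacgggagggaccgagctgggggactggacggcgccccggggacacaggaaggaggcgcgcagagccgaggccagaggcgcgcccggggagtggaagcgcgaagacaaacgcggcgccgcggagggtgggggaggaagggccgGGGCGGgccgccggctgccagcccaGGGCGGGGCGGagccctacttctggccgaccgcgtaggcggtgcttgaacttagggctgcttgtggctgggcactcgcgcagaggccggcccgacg
CD22, chr19:35328937-35329236, plus strand: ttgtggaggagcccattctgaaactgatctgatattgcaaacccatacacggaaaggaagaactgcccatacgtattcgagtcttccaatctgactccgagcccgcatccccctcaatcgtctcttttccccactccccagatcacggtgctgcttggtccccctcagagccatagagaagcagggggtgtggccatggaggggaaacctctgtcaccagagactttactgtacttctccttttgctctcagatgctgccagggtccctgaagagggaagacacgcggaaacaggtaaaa
CD72, chr9:35618364-35618663, minus strand: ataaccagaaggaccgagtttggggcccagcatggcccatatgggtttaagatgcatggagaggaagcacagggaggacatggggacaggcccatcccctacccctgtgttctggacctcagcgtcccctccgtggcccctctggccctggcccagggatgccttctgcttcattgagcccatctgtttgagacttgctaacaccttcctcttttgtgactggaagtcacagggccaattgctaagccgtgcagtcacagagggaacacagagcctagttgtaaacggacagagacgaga
The CD9 window was 75.7% G or C with 32 CpG dinucleotides and 6 GC boxes, and the CD58 window 71.7% with 36 CpG and 3 GC boxes, 2 of which overlap. The CD22 window was 53.0% G or C with 9 CpG, the CD72 window was 56.3% with 6 CpG, and neither held a GC box. Over all 34943 windows of this length the median was 58.7% G or C with 14 CpG, and 44.9% of them held a GC box. The letters CCCTC, from which CTCF takes its name, occur 1 time in the CD9 window, 2 times in that of CD58, 4 times in that of CD22 and 3 times in that of CD72, counting both strands, and 71.2% of all windows hold them. TATAAA (11.6% of windows) is in none of the 4, which says only that these letters are not there. For CD9, where RefSeq lists several starts, the window shown is that of Gencode's canonical transcript.

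Library depth was 51732177 to 53166735 expected counts in CTCF-WT and 30034505 to 50457168 in CTCF-dRBR, with CTCF-dRBR replicate 1 the lowest. That library also stood apart by rank: its Spearman rho with the other 5 over the tested genes was 0.913 to 0.968. The deviation of each library from the mean of all 6 followed the G and C content of the exons, with rho across 13654 genes of 0.709, 0.674 and 0.339 in CTCF-WT and −0.78, −0.417 and 0.504 in CTCF-dRBR replicates 1, 2 and 3. Depth, GC trend and group are therefore not separate in these libraries, and each antigen tested is also given without that library and after removal of the GC trend. Cell markers were read in deposited TPM, a scale that differs between libraries, so their sums do not compare the groups. They went with the label of a B-lineage leukemia but do not identify the line or its fusion. The 4 genes of this leukemia (MEIS1, HOXA9, FLT3 and PROM1) summed to 438 to 1020 TPM in CTCF-WT and 909 to 1460 TPM in CTCF-dRBR. The 10 B-lineage markers summed to 236 to 342 and 247 to 407 TPM. Of the B-lineage markers, DNTT, RAG1 and BLNK stayed under 1 TPM in every library. Markers of T cells (7 genes, at most 0.73 TPM in sum, CD3D at 0 in all 6 libraries) and erythroid cells (3 genes, at most 0.08 TPM, HBA1 at 0) were near absent. The 6 myeloid markers summed to 5.98 to 9.51 TPM, with ELANE at 0, and the 3 NK-cell markers to 16.6 to 31.6 TPM, nearly all of it NKG7. CTCF itself had 209.9, 211.2 and 248.6 CPM in CTCF-WT and 272.8, 263.7 and 252.1 CPM in CTCF-dRBR, a log2 difference of 0.24 (SE 0.10, limma-voom adjusted p = 0.202). The CTCF row counts the tagged gene and any replacement together, so it does not check the labels.

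Which antigens SEM cells transcribe was read from TPM, a level per transcript length, rescaled here over protein-coding genes to the same total, because these genes held between 30.2% and 63.2% of the deposited TPM depending on the library. In CTCF-WT, CD9 was the most abundant at 161.4 ± 9.03 TPM (SD, n = 3), followed by CD72 at 83.95 ± 1.94 and CD22 at 76.55 ± 4.02, each above the next in all 3 libraries. CD58 at 33.49 ± 4.53 TPM and CD37 at 29.87 ± 5.56 TPM overlapped, so their order is not resolved. TNFRSF13C was far lower at 3.60 ± 0.46 TPM, and CD34 and MME were at 0.042 ± 0.012 and 0.030 ± 0.029 TPM, again overlapping. The order of the 6 tested antigens by mean was the same in CTCF-dRBR: CD9 at 246.5 ± 45.9 TPM, CD72 at 105.7 ± 12.8, CD22 at 94.4 ± 17.5, CD58 at 57.5 ± 14.8, CD37 at 28.56 ± 15.8 and TNFRSF13C at 3.20 ± 1.77. There the values of CD72 and CD22 overlapped between libraries, although CD72 was above CD22 within each of the 3.

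**Figure D1:**
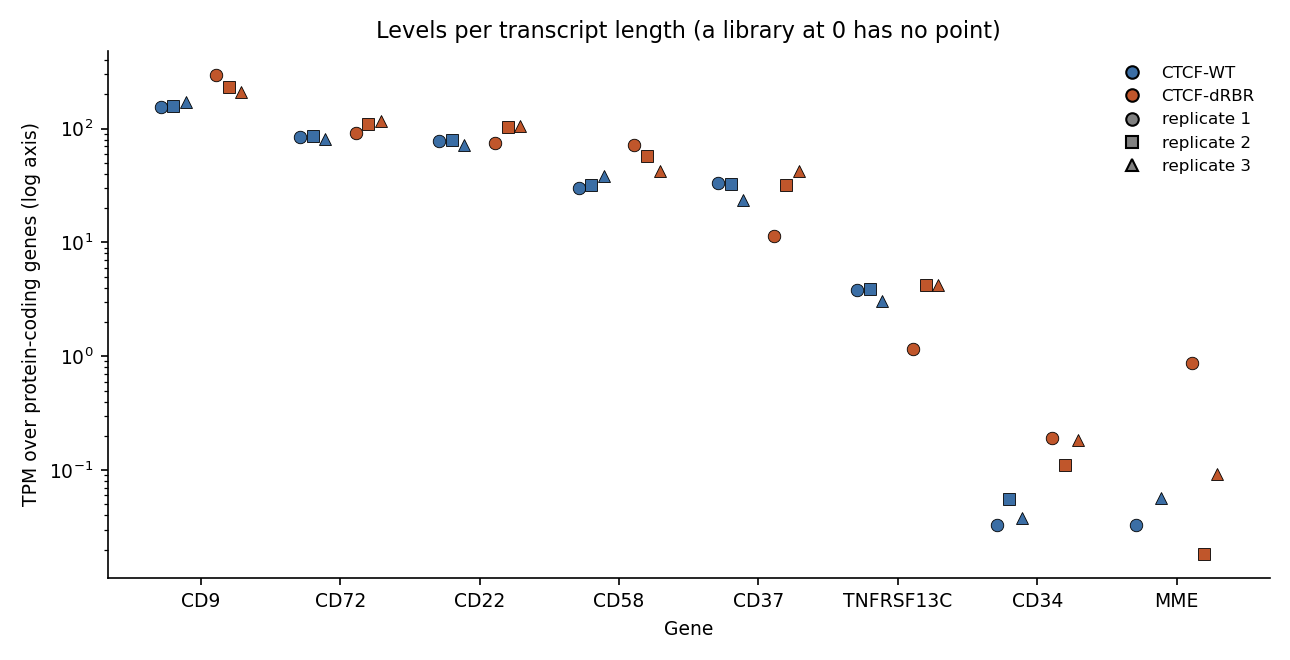
Level per transcript length of the 8 antigens in each library, as TPM over protein-coding genes on a log axis, with color for the group and marker shape for the replicate. CD9 lies highest in both groups, CD34 and MME lie below 1 TPM in every library, and MME has no point for CTCF-WT replicate 2, where it is at 0. CTCF-dRBR replicate 1 is the lowest point for CD37 and TNFRSF13C and the highest for CD9, CD58, MME and, narrowly, CD34.

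Of the 6 tested antigens, CD72, CD9 and CD58 were higher in all 3 CTCF-dRBR libraries than in any CTCF-WT library, and CD22, CD37 and TNFRSF13C overlapped between the groups. The levels compared between groups are CPM, counts scaled to a common library size by the trimmed mean of M values (TMM). No antigen passed an adjusted p of 0.05 in limma-voom with Benjamini-Hochberg adjustment, and of all 14044 genes 0% did. The edgeR quasi-likelihood test likewise called 0 of the 6 and 0% of all genes. With sample quality weights 4 of the 6 passed, in a fit where 68.2% of all genes did. At an unadjusted p under 0.05 the 3 non-overlapping antigens were counted, all higher, against 25.4% of all tested genes, 12.6% higher and 12.8% lower. Of all tested genes 20.0% were higher without overlap and 17.5% were lower. The median log2 fold change of the 6 was 0.23, against −0.01 over all tested genes. In the deposited TPM the number without overlap was also 3, but CD22 was among them and CD58 was not, with 18.6 TPM in CTCF-dRBR replicate 3 against 20.2 TPM in CTCF-WT replicate 3, and 13.1% of all genes were higher in that way. In bulk RNA, fewer cells with a transcript and less transcript per cell cannot be told apart.

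**Figure D2:**
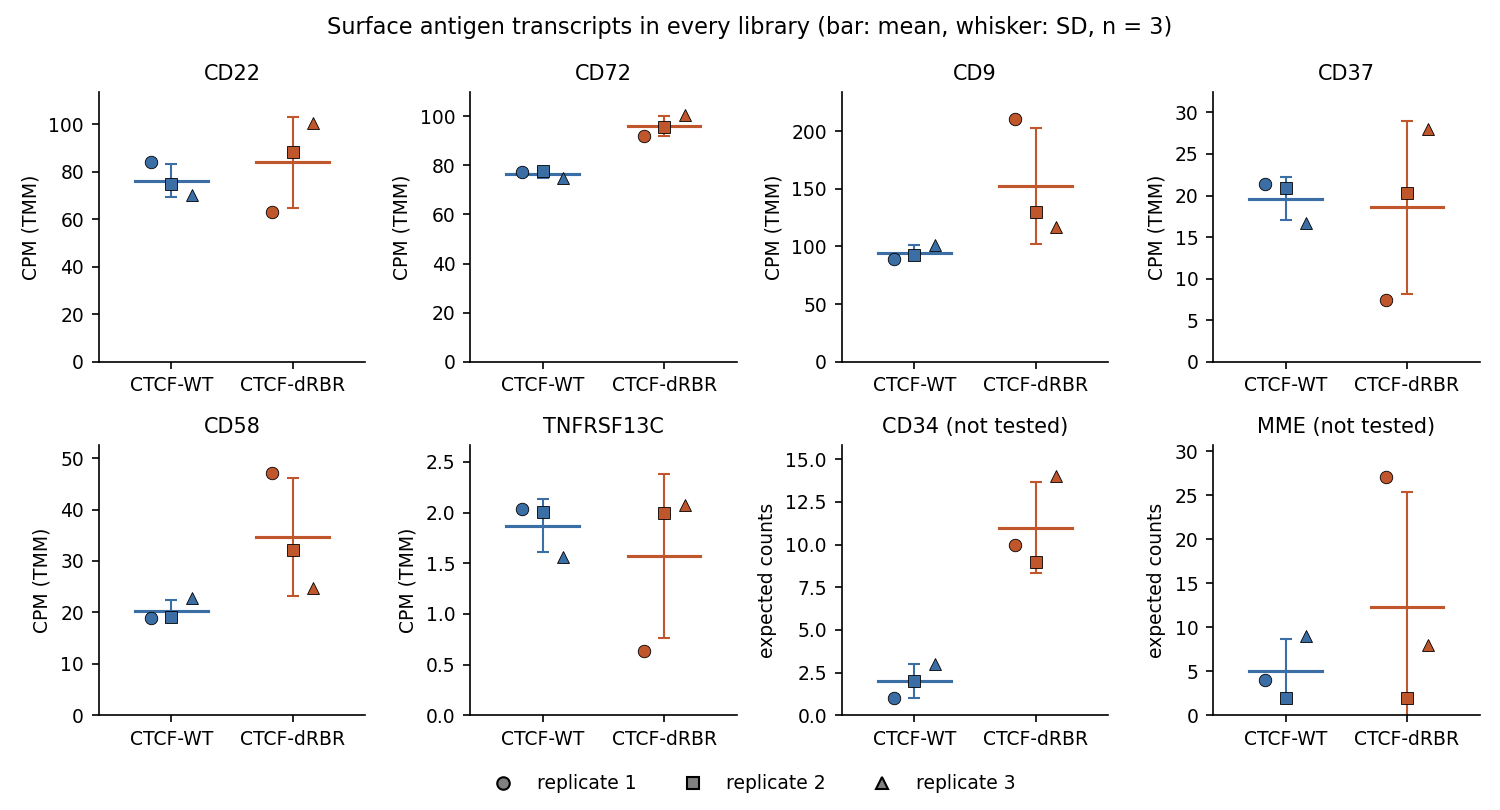
Level of each antigen in every library, in CPM for the 6 tested genes and in expected counts for CD34 and MME, with each axis starting at 0. Bars are group means and whiskers 1 SD (n = 3). CD72, CD9, CD58 and CD34 do not overlap between the groups, and CTCF-dRBR replicate 1 (circle) is the farthest point of its group for CD22, CD9, CD37, CD58, TNFRSF13C and MME.

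CD72, the C-type lectin coreceptor (chr9:35609979-35646807, minus strand, GRCh37), had the smallest standard error of the 6. Its level was 77.2, 77.6 and 74.6 CPM in CTCF-WT and 92.0, 95.5 and 100.4 CPM in CTCF-dRBR. The CTCF-dRBR libraries lay close together and all above CTCF-WT, and here replicate 1 did not stand out. A log2 fold change of 0.33 was estimated (SE 0.09, 95% interval 0.12 to 0.54, unadjusted p = 0.00767, limma-voom adjusted p = 0.138). Without CTCF-dRBR replicate 1 it was 0.35 (limma-voom adjusted p = 0.0553). CD72 was the only antigen past the threshold with DESeq2, at a log2 fold change of 0.33 and adjusted p = 0.00135, where 11.5% of all genes passed and 5.38% were higher. With the GC trend removed CD72 was at 64.4, 67.0 and 74.5 CPM in CTCF-WT and 164.1, 108.2 and 93.9 CPM in CTCF-dRBR, so that replicate 1 went from the lowest to the highest of its group. Its log2 fold change became 0.77 (limma-voom adjusted p = 0.0589). Exons of CD72 are 56.0% G or C, and 2.05% of their bases lie under exons of TESK1 and 5.2% under those of the lncRNA ENSG00000227933, both on the other strand. The tables are named as stranded, and reads of such pairs are told apart only if strand was used in counting.

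CD22, the sialic acid-binding coreceptor targeted by antibody-drug conjugates in this leukemia (chr19:35810164-35838264, plus strand), had 83.9, 74.7 and 70.1 CPM in CTCF-WT and 62.9, 88.4 and 100.4 CPM in CTCF-dRBR. CTCF-dRBR replicate 1 held the lowest value of the 6 and replicates 2 and 3 the 2 highest. The log2 fold change was 0.13 (SE 0.19, 95% interval −0.31 to 0.58, limma-voom adjusted p = 0.624), an interval that spans changes in both directions. Without replicate 1 it was 0.31 (unadjusted p = 0.0246, limma-voom adjusted p = 0.121). Removing the GC trend brought the CTCF-dRBR libraries together, at 104.8, 98.6 and 95.1 CPM against 72.5, 66.7 and 70.2 CPM in CTCF-WT. CD22 was then higher at a log2 fold change of 0.51 (limma-voom adjusted p = 0.0182), a setting in which 9.68% of all genes passed and 4.25% were higher. The ratio of CD22 to CD72 within a library, from their TPM, was 0.92, 0.933 and 0.881 in CTCF-WT and 0.813, 0.937 and 0.916 in CTCF-dRBR, and from their CPM it was 1.09, 0.963 and 0.939 in CTCF-WT and 0.684, 0.926 and 1.00 in CTCF-dRBR. Replicate 1 of CTCF-dRBR had the lowest ratio on both scales, and the other 5 libraries overlapped between groups.

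CD9, the tetraspanin that partners with integrins (chr12:6308881-6347437, plus strand), had 89.4, 92.9 and 101.6 CPM in CTCF-WT and 210.4, 129.6 and 117.3 CPM in CTCF-dRBR. Each CTCF-dRBR value exceeded CTCF-WT, and replicate 1 was far above the other 2. CD9 had a log2 fold change of 0.63 (SE 0.22, 95% interval 0.09 to 1.17, unadjusted p = 0.0285, limma-voom adjusted p = 0.169). Leaving out replicate 1 lowered it to 0.38 (limma-voom adjusted p = 0.0755), and removing the GC trend raised it to 0.82 (adjusted p = 0.125). With the trend removed, replicate 1 stood at 276.4 CPM against 140.2 and 117.8 CPM in replicates 2 and 3, so its distance from them did not come down with the GC adjustment.

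CD37, the leukocyte tetraspanin (chr19:49838428-49846592, plus strand), showed the opposite placement of that library. It had 21.3, 20.9 and 16.7 CPM in CTCF-WT and 7.42, 20.3 and 28.0 CPM in CTCF-dRBR, with replicate 1 lowest and replicate 3 highest of all. CD37 had a log2 fold change of −0.20 (SE 0.45, 95% interval −1.28 to 0.88, limma-voom adjusted p = 0.763), so neither direction was resolved. It was 0.29 without replicate 1 (limma-voom adjusted p = 0.287) and 0.33 with the GC trend removed (adjusted p = 0.306), the other sign in both. The ratio of CD9 to CD37, chosen after the values were seen, was 4.66, 4.79 and 7.32 in CTCF-WT and 26.2, 7.29 and 4.93 in CTCF-dRBR: 1 library differed, and the other 5 overlapped between groups. Exons of CD37 are 57.5% G or C against 51.3% for CD9, and 7.67% of the CD37 exon bases lie under exons of TEAD2 on the other strand.

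CD58, the adhesion ligand also called LFA-3 (chr1:117057156-117113661, minus strand), had 18.9, 19.2 and 22.7 CPM in CTCF-WT and 47.2, 32.1 and 24.7 CPM in CTCF-dRBR. The groups did not overlap, but the lowest CTCF-dRBR library lay close to the highest of CTCF-WT. With all libraries and no GC adjustment, its log2 fold change of 0.69 was the largest of the 6 (SE 0.25, 95% interval 0.09 to 1.28, unadjusted p = 0.0299, limma-voom adjusted p = 0.173). It was 0.47 without replicate 1 (limma-voom adjusted p = 0.112) and 0.42 with the GC trend removed (adjusted p = 0.0766), where CD9, CD72 and CD22 had larger values. That adjustment put CTCF-dRBR at 37.1, 32.0 and 27.1 CPM and CTCF-WT at 23.2, 22.5 and 24.8 CPM. CD58 has the lowest exon G and C content of the 6, 39.3%, and its level was highest in the library with the most negative GC trend. Unlike that of CD9, its CTCF-dRBR spread narrowed with the trend removed.

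TNFRSF13C, the BAFF receptor (chr22:42318036-42322810, minus strand), was near the filter. It had 2.04, 2.01 and 1.57 CPM in CTCF-WT and 0.635, 2.00 and 2.08 CPM in CTCF-dRBR, which come from 100, 103 and 83 expected counts and from 19, 103 and 107. Replicate 1 again lay apart, and replicates 2 and 3 were within or just above the CTCF-WT values. The log2 fold change was −0.31 (SE 0.43, 95% interval −1.36 to 0.73, limma-voom adjusted p = 0.617), and it was 0.13 without replicate 1 (limma-voom adjusted p = 0.651) and 0.12 with the GC trend removed (adjusted p = 0.775). A difference in either direction of this size was not detectable at this depth and spread.

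**Figure D3:**
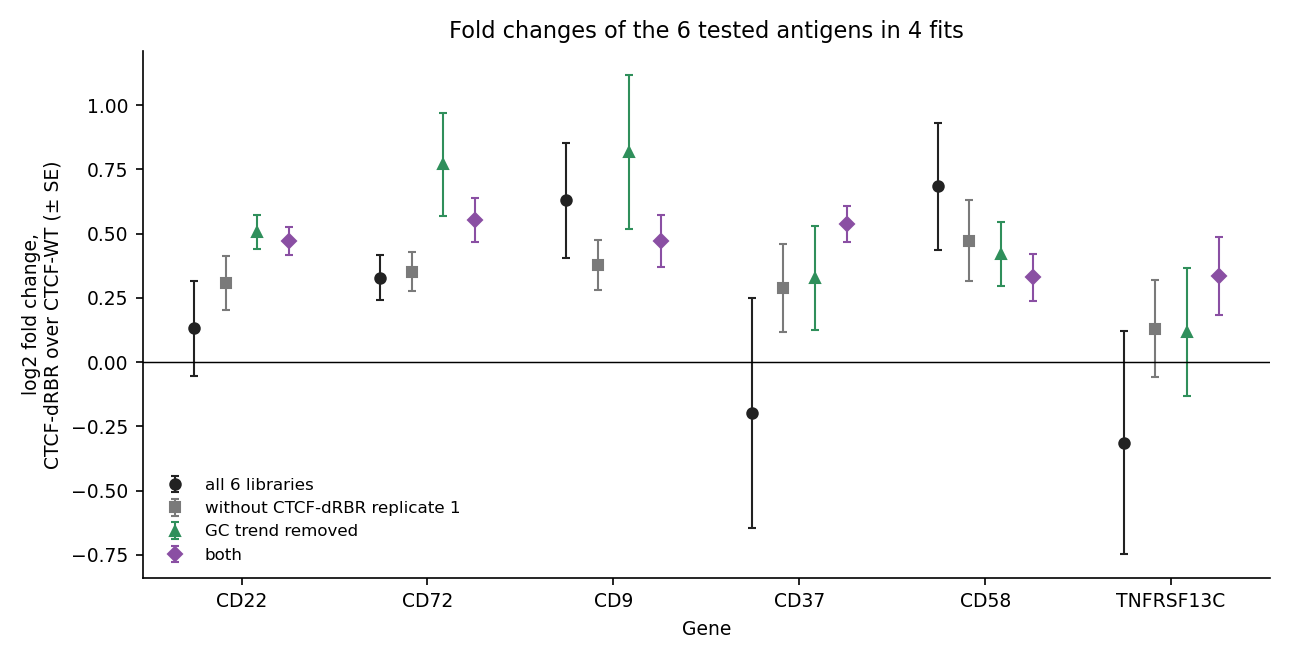
Log2 fold change of CTCF-dRBR over CTCF-WT for the 6 tested antigens in 4 limma-voom fits: all 6 libraries, without CTCF-dRBR replicate 1, with the GC trend removed, and with both. Whiskers are 1 SE. CD22, CD72, CD9 and CD58 lie above 0 in each fit, although the whisker of CD22 reaches below 0 with all libraries. CD37 and TNFRSF13C lie below 0 with all libraries and above 0 in the other 3 fits.

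With the GC trend removed and CTCF-dRBR replicate 1 left out, all 6 antigens were higher in both remaining CTCF-dRBR libraries than in any CTCF-WT library, with a median log2 fold change of 0.47, and 27.1% of all genes were higher without overlap in the same way. There 5 of the 6 passed in limma-voom: CD22 (0.47, adjusted p = 0.00538), CD37 (0.54, adjusted p = 0.00607), CD72 (0.55, adjusted p = 0.00888), CD9 (0.47, adjusted p = 0.0217) and CD58 (0.33, adjusted p = 0.0421). TNFRSF13C did not, at 0.33 and adjusted p = 0.149. In that fit 24.5% of all genes passed, and 11.0% were higher. Whether the GC trend of the libraries is part of the difference between groups was not tested.

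CD34 (chr1:208054317-208084747, minus strand), the sialomucin of stem and progenitor cells, had 1, 2 and 3 expected counts in CTCF-WT and 10, 9 and 14 in CTCF-dRBR. The CTCF-WT counts are at or under the 3 counts taken as the floor, which is 0.0564 to 0.0999 CPM depending on the library, and all CTCF-dRBR counts are above it without overlap. Summed over libraries, 6 counts against 33 gave a rate ratio of 6.70 (exact 95% interval 2.77 to 19.5), and 6.08 (2.41 to 18.2) without CTCF-dRBR replicate 1. These intervals cover counting error only and no spread between libraries, and an exact permutation test on the 3 against 3 CPM values gave its smallest possible p, 0.1 (two-sided). Without the filter on low counts, CD34 had a log2 fold change of 2.39 (limma-voom adjusted p = 0.204). In that fit the median over 38604 genes was 0.19, so genes at large also leaned higher.

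MME (chr3:154741913-154901493, plus strand), the CD10 gene, had 4, 2 and 9 expected counts in CTCF-WT and 27, 2 and 8 in CTCF-dRBR. The excess was in replicate 1: 15 summed counts against 37 gave a rate ratio of 3.00 (exact 95% interval 1.61 to 5.89), and 15 against 10 without that library gave 1.06 (0.425 to 2.51). Exons of MME are 39.8% G or C, close to those of CD58, and 2.17% of their bases lie under exons of MME-AS1 on the other strand. CD34 and MME thus stayed below 1 TPM in both groups, and MME gave no excess outside 1 library.

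Beyond these antigens, 27 other surface antigens of B-cell leukemia were listed and 20 were tested. Of these, 7 were higher at an unadjusted p under 0.05 and 0 lower, with a median log2 fold change of 0.19, and none passed the adjusted threshold in limma-voom. Over all tested genes 12.6% were higher and 12.8% lower at that unadjusted p, shares that also apply to the counts of the lists below. CD38, an ectoenzyme of early B cells, had 15.8, 15.5 and 15.8 CPM in CTCF-WT and 31.3, 32.2 and 28.5 CPM in CTCF-dRBR (log2 fold change 0.96, SE 0.11, limma-voom adjusted p = 0.0959). Its 6 values form a pair of tight clusters, and the fold change was 0.94 without CTCF-dRBR replicate 1 (limma-voom adjusted p = 0.0281) and 0.77 with the GC trend removed (adjusted p = 0.0182). PTPRC, which encodes the phosphatase CD45, had 27.9, 30.3 and 37.4 CPM in CTCF-WT and 73.0, 59.7 and 54.6 CPM in CTCF-dRBR (log2 fold change 0.95, limma-voom adjusted p = 0.0959). PTPRC passed without CTCF-dRBR replicate 1 (0.85, limma-voom adjusted p = 0.0426) and after GC correction (0.60, adjusted p = 0.0204). PROM1 (CD133) had a log2 fold change of 0.33 (limma-voom adjusted p = 0.14), 0.30 without that library (adjusted p = 0.0947) and 0.29 after GC correction (adjusted p = 0.0413). Without CTCF-dRBR replicate 1, where 3.90% of all genes passed, the list had 2 genes past the adjusted threshold higher and 1 lower. With the GC trend removed, where 9.68% of all genes passed and 4.25% were higher, it had 5 higher and 1 lower.

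Downstream of CD22 and CD72, 14 of 15 coreceptor signaling genes were tested, with 2 higher and 1 lower at an unadjusted p under 0.05 and a median log2 fold change of −0.10. PTPN6, which encodes the SHP-1 phosphatase that both coreceptors recruit, had a log2 fold change of −0.36 (limma-voom adjusted p = 0.196), −0.24 once CTCF-dRBR replicate 1 was left out, and 0.41 with the GC trend removed (adjusted p = 0.302), so its sign was not settled. The kinase genes FYN and SYK had 0.34 (limma-voom adjusted p = 0.182) and 0.19 (adjusted p = 0.222), with 0.27 and 0.21 once CTCF-dRBR replicate 1 was left out and 0.27 and 0.34 after GC correction, none past the threshold.

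In a list of ligands and counter-receptors of the antigens and genes related to these, 7 of 10 were tested. At an unadjusted p under 0.05, 2 were higher and 2 lower, and the median log2 fold change was 0.11. CD48, a relative of CD58, had 44.8, 46.9 and 47.7 CPM in CTCF-WT and 63.9, 66.2 and 61.9 CPM in CTCF-dRBR (log2 fold change 0.46, limma-voom adjusted p = 0.105). It passed without CTCF-dRBR replicate 1 (0.46, limma-voom adjusted p = 0.0463) and with the GC trend removed (0.34, adjusted p = 0.0381). ST6GAL1, the sialyltransferase that makes the glycan CD22 binds, was lower in every CTCF-dRBR library, at 84.6, 106.0 and 114.0 CPM against 132.0, 142.0 and 133.0 CPM, a log2 fold change of −0.42 (limma-voom adjusted p = 0.152), and PODXL, a sialomucin of the CD34 family, had −0.65 (adjusted p = 0.112). With CTCF-dRBR replicate 1 left out ST6GAL1 had −0.30 and PODXL −0.61, and after GC correction they had −0.38 and −0.40, none of these past the threshold in limma-voom.

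For the BAFF receptor, 9 of 12 genes of its ligands and of noncanonical NF-kB signaling were tested, 1 higher and 1 lower at an unadjusted p under 0.05. The ligand gene TNFSF13B had 3.02, 2.98 and 3.55 CPM in CTCF-WT and 8.12, 5.85 and 4.11 CPM in CTCF-dRBR (log2 fold change 0.85, limma-voom adjusted p = 0.155), and 0.62 once CTCF-dRBR replicate 1 was left out and 0.52 after GC correction. The adaptor gene TRAF2 had −0.72 (limma-voom adjusted p = 0.194), and −0.42 and −0.01 in those settings. The ubiquitin ligase gene BIRC2 had 0.36 (limma-voom adjusted p = 0.222), and 0.21 and 0.08, and none of the 3 passed in any of these fits. The list's median moved from −0.55 to −0.12 once CTCF-dRBR replicate 1 was left out and to 0.08 after GC correction.

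Of the other tetraspanins and their partners, 16 of 20 were tested, with 1 higher and 4 lower at an unadjusted p under 0.05 and a median of −0.02. CD151 had a log2 fold change of −1.22 (limma-voom adjusted p = 0.167), TSPAN17 −0.85 (adjusted p = 0.136) and CD63 −0.53 (adjusted p = 0.14). With the GC trend removed CD151 was lower past the threshold (−0.46, limma-voom adjusted p = 0.0311), whereas CD63 was at 0.01 (adjusted p = 0.982) and TSPAN17 at −0.23 (adjusted p = 0.286). With CTCF-dRBR replicate 1 left out CD151 had −0.77, TSPAN17 −0.66 and CD63 −0.54, none past the threshold. In the fit with all libraries CD9 was above 0 and these 3 tetraspanins, named for their small p, were below it. The 1 higher gene of the list was TSPAN13, at 0.26 (limma-voom unadjusted p = 0.0498), on the side of CD9. The family thus held genes on both sides of 0, and differences between genes were not tested.

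**Figure D4:**
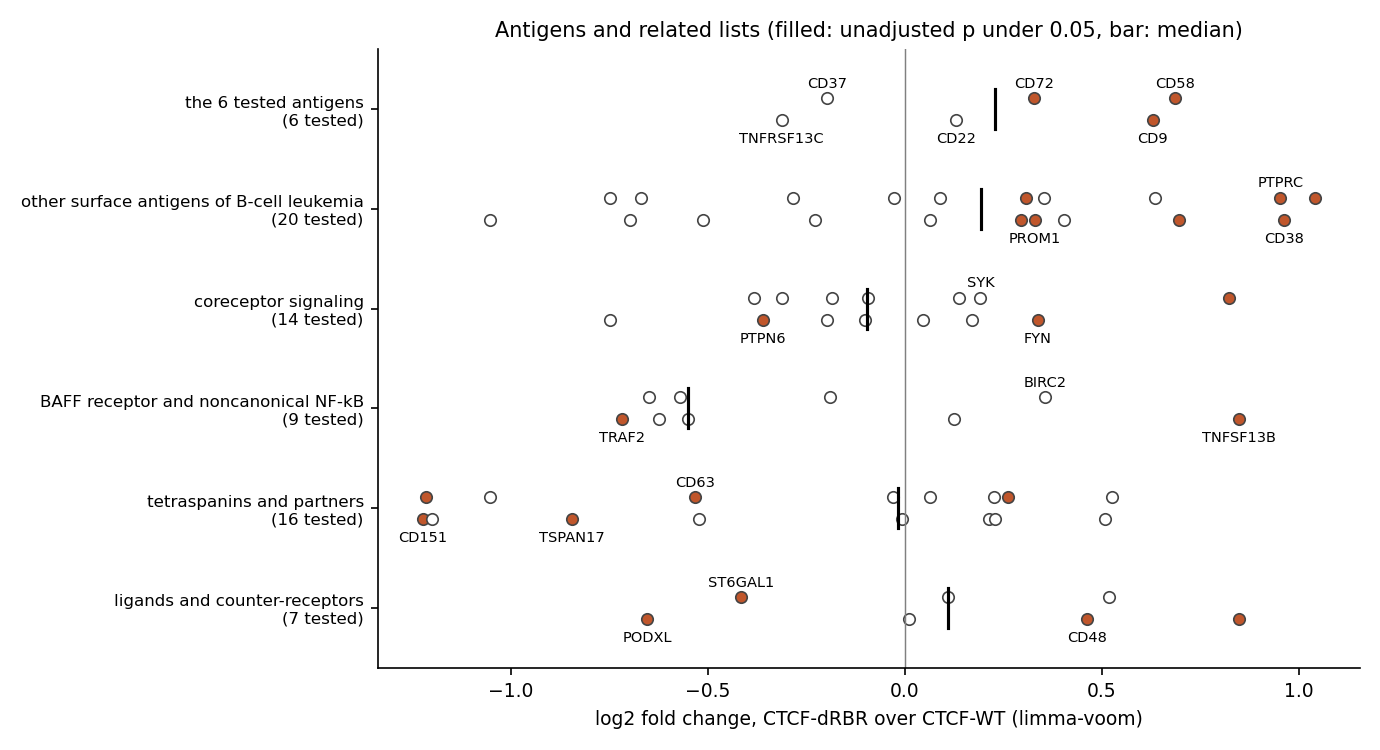
Log2 fold change of CTCF-dRBR over CTCF-WT for each tested gene of the antigen set and of the 5 related lists, from limma-voom with all 6 libraries. Filled points have an unadjusted p under 0.05, bars are list medians, and names mark the antigens and up to 3 genes a list. The other surface antigens have 7 filled points, all above 0, and the tetraspanins 4 below 0 and 1 above.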

How the data were processed

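Total RNA depleted of ribosomal RNA was sequenced from 3 CTCF-WT and 3 CTCF-dRBR libraries. According to the methods and the submitters' processing notes, the authors trimmed reads with Trim Galore (0.6.3), aligned them to GRCh37 with STAR (2.7.9a) and quantified Gencode genes with RSEM (1.3.1). The labels call the reads single-end and the methods paired-end, and the tables are named as stranded, while the strand setting of the counting is not given in the sources used here. The expected counts deposited by the authors are not normalized. The deposited TPM share 1 fixed total per library over all genes. The table also lists 92 spike-in sequences, all at 0.

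Following the study's methods, genes with a CPM under 1 in all libraries were removed, libraries were scaled by TMM, and the 6 libraries were compared with limma-voom (limma 3.58.1, edgeR 4.0.16, R 4.3.3) with Benjamini-Hochberg adjustment over all 14044 tested genes at 0.05. Expected counts were rounded for edgeR's quasi-likelihood test and DESeq2 (1.42.0). Fold changes from TPM are on the log2(TPM + 1) or log2(TPM + 0.1) scale, which understates those of low genes. The GC trend was a loess curve (span 0.5, degree 2) of each library's deviation on exon G and C content, divided out of the counts. Exon positions came from Gencode lifted to GRCh37. In all, 23 alternatives were run. Scripts were tested on simulated data.

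The antigens and lists were chosen with earlier results of these data known. Every antigen was named, with CTCF. From each list, genes with a mean TPM of 1 or more were ranked by unadjusted p, and at most the first 3 were named.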

Additional observations from a re-analysis of the deposited data

How the results depend on the processing

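Settings that changed a result are as follows, with limma-voom unless named. The number of antigens past an adjusted p of 0.05, 0 with all libraries, was 1 with DESeq2 (CD72), 4 with sample quality weights (CD22, CD72, CD9 and CD58, where 68.2% of all genes passed), 1 with the GC trend removed (CD22) and 5 with the GC trend removed and without CTCF-dRBR replicate 1. The edgeR quasi-likelihood test called 0, with 3 at an unadjusted p under 0.05 (24.6% of all genes). That unadjusted count, 3, was 1, 1 and 2 without CTCF-WT replicate 1, 2 and 3 (10.2%, 10.6% and 22.8% of all genes), 4, 2 and 3 without CTCF-dRBR replicate 1, 2 and 3 (30.4%, 13.4% and 41.0%), and was 5 with the GC trend removed and without CTCF-dRBR replicate 1 (40.3% of all genes). The unadjusted count was also 4 with quality weights, with the GC trend removed and with the replicate block added to that. It was 2 with log2(TPM + 1) or log2(TPM + 0.1) of the deposited values and without the filter. The share of all genes at that unadjusted p was not taken for these settings with 4 or 2, so these counts cannot be set against it. With quality weights 68.2% of all genes passed even the adjusted threshold. The number without overlap, 3 (20.0% of all genes were higher in this way), was 4 without CTCF-dRBR replicate 1, 4 with the GC trend removed and 6 with both (27.1%). For the counts of 4 the share of all genes was not taken, so they cannot be read as a change in the antigens. The median log2 fold change, 0.23, was 0.75 with log2(TPM + 1) and 0.77 with log2(TPM + 0.1), settings that moved the median over all genes to 0.40 and 0.54. It was 0.46 with the GC trend removed, 0.47 with the replicate block added to that, 0.47 without CTCF-dRBR replicate 1 as well, and 0.14 to 0.33 when 1 library was left out.

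CD72, CD9 and CD58 were higher in all 23 alternatives. CD22 was at −0.011 without CTCF-dRBR replicate 3, the low end of a leave-one-out range reaching 0.306. CD37 took the other sign with log2(TPM + 1) (0.21), log2(TPM + 0.1) (0.22), without CTCF-dRBR replicate 1 (0.29), with the GC trend removed (0.33), also with the replicate block (0.33), and with both the trend and that library removed (0.54). TNFRSF13C did so in the same settings (0.088, 0.088, 0.13, 0.12, 0.13 and 0.33) and with quality weights (0.001). Leaving out 1 library gave −0.599 to 0.287 for CD37 and −0.579 to 0.130 for TNFRSF13C. The cause was not tested.

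Same-numbered libraries did not deviate together (r = −0.34, 0.10 and −0.47). These deviations were taken without GC correction and carry each library's GC trend, so they cannot settle whether such libraries were prepared as pairs. With a replicate block 0 antigens passed and 1 (CD9) had an unadjusted p under 0.05, as 10.1% of all genes did. With the block added to the GC correction 0 antigens and 0% of all genes passed, and CD22 had an adjusted p of 0.135 in limma-voom at the same log2 fold change of 0.51.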
